A study of Mus musculus with 13 samples.

Results

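Mural cells of the medial amygdala that were rich in Acta2 transcripts are described here. Acta2 encodes smooth muscle alpha-actin. A cell was counted as Acta2-rich when the authors had classed it as mural, it had at least 500 detected genes and it held 3 or more Acta2 UMIs (unique molecular identifiers, each standing for 1 captured mRNA molecule). This rule chose 317 of 775 such mural cells, out of 24808 cells of all classes with at least 500 detected genes and 43388 deposited cells. They were compared with the 440 mural cells that held 0 Acta2 UMIs, called Acta2-0 here, and the 18 mural cells with 1 or 2 Acta2 UMIs entered neither group. Because the members were chosen by their Acta2 counts, Acta2 was left out of every test and its own values are given as a description only. Genes that run with Acta2 from cell to cell are bound to it by this choice.

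The study profiled the whole dissociated medial amygdala, a forebrain region of social behaviour, by Drop-seq, in naive C57BL/6J mice (an inbred strain) of both sexes. Drop-seq captures single cells in droplets with barcoded beads. There were 6 male and 7 female libraries, from mice aged 9 weeks except male replicates 3 and 5 and female replicate 3, which were from mice aged 8 weeks. Every mouse was kept singly for 1 day or longer under a reversed light cycle, and cells were dissociated with Act-seq, which blocks transcription during the dissociation. The labels name separate samples and not separate animals, so the spread that p-values measure is the one between libraries and may be technical.

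Smooth muscle cells wrap arteries and arterioles and set their width by contracting. Calcium bound to calmodulin activates myosin light chain kinase, myosin then pulls on actin filaments, and myosin phosphatase, held back by the kinase Rock1, ends the contraction. Pericytes, the mural cells of capillaries, carry less of this contractile machinery and are known in the brain for the potassium channel formed by Kcnj8 and Abcc9 and for the matrix protein vitronectin (Vtn). Fibroblasts of the meninges and of larger vessels are a further cell type that sits around brain vessels and makes collagens and decorin (Dcn).

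Acta2 divided the mural cells with few in between. The Acta2-rich cells held 3 to 434 Acta2 UMIs, with a median of 34, and only 10 of them had 3 or 4. Those 10 cells, just inside the rule, had 2732 CPM (the gene's UMIs scaled to the same total of UMIs in every library or pool) of Myh11, the heavy chain of smooth muscle myosin, and 8742 CPM of Vtn when pooled. The 18 cells just outside it had 2018 CPM of Myh11 and 6886 CPM of Vtn. Across libraries, Acta2 stood at 12836 CPM in the lowest, 15329 CPM in the median and 18964 CPM in the highest of 13 libraries. In the other classes 0.822% of astrocytes to 2.15% of newly formed oligodendrocytes held an Acta2 UMI, at median depths of 1809 and 4076 UMIs per cell. Of mural cells 43.2% did (median 1633 UMIs). The source of the Acta2 UMIs in the other classes was not tested.

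**Figure D1:**
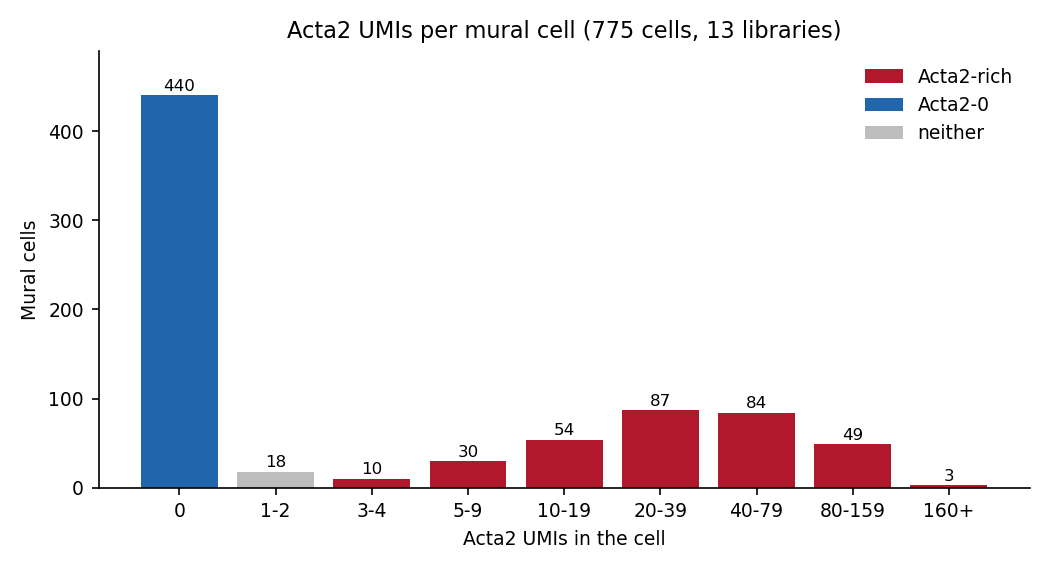
Number of mural cells (vertical axis) by the Acta2 UMIs they held (horizontal axis, in bins). Red bars are the 317 Acta2-rich cells, the blue bar the 440 Acta2-0 cells and the grey bar the 18 cells in neither group; most Acta2-rich cells lie well above the threshold of 3.

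Every library held both kinds of cell, with 12 to 36 Acta2-rich cells and 15 to 47 Acta2-0 cells, and 42864 to 98178 UMIs summed over the Acta2-rich cells. Acta2-rich cells were deeper, with a median of 2606 UMIs and 1463 genes per cell against 1393 UMIs and 895.5 genes in Acta2-0 cells, so shares of cells are also given after thinning every cell to 1000 UMIs (277 Acta2-rich and 334 Acta2-0 cells; 40 and 106 shallower cells left out). No barcode was found in mural cells of more than 1 library. Scrublet, a doublet caller, marked 3 Acta2-rich and 7 Acta2-0 cells. The Acta2-0 group was mixed: 197 of its 440 cells (44.8%) held a UMI of the fibroblast genes Dcn, Lum, Slc6a13 or Col1a1, against 1 of the 317 Acta2-rich cells (0.315%). Of the other 243 Acta2-0 cells, 215 (88.5%) held Kcnj8 or Abcc9. Counts over the gene lists are therefore also given against Acta2-0 cells without fibroblast UMIs, an alternative chosen after these values were seen.

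The label of smooth muscle held up against its markers, which were chosen with earlier results of these data known. Myh11 was detected in 313 of 317 Acta2-rich cells (98.7%) and in 35 of 440 Acta2-0 cells (7.95%), and after thinning in 98.9% and 6.29%. Tagln, which encodes the actin-bundling protein transgelin, was detected in 96.8% of Acta2-rich cells and in 1.36% of Acta2-0 cells. Both genes were found together in 304 Acta2-rich cells, and 1 cell had neither. Kcnj8 or Abcc9 was found in 9 Acta2-rich cells (2.84%), but other pericyte markers were not absent. Over all 10 pericyte markers, 257 Acta2-rich cells (81.1%) held 3 or more UMIs, against 416 Acta2-0 cells (94.5%). Rgs5 was detected in 84.9% and Vtn in 54.9% of Acta2-rich cells. In astrocytes, a class that should lack both genes, Myh11 was detected in 0.403% and Tagln in 0.341% of cells (median 1809 UMIs per cell). Of 12 smooth muscle markers 9 could be tested without Acta2, and 8 were higher in Acta2-rich cells, Casq2, a calcium store protein, being the one that did not pass (log2 -0.26 ± 0.22, edgeR adjusted p = 0.317). Without cells with fibroblast UMIs 7 of 8 were higher and Casq2 was lower (-1.08 ± 0.24).

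The start of the Acta2 gene carries a known control sequence of smooth muscle genes, the CArG element, which serum response factor binds. The windows below are the 250 bases before the RefSeq start of 3 genes that lead the Acta2-rich cells, Acta2, Myl9 (regulatory light chain of myosin) and Crip1 (a LIM protein of smooth muscle), read on the gene's own strand on GRCm38.p6; they are shown because each holds a pair of matches, which stand in capitals.

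Acta2, chr19:34255374-34255623, minus strand: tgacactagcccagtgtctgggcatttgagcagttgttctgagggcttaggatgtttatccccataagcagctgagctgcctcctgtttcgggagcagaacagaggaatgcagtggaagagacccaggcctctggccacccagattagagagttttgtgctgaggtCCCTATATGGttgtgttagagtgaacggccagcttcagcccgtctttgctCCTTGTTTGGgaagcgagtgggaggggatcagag

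Myl9, chr2:156775214-156775463, plus strand: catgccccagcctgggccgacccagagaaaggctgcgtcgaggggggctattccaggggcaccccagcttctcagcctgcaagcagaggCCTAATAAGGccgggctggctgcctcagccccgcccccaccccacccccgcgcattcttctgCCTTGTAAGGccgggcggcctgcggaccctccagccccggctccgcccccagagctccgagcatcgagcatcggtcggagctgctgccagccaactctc

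Crip1, chr12:113151762-113152011, plus strand: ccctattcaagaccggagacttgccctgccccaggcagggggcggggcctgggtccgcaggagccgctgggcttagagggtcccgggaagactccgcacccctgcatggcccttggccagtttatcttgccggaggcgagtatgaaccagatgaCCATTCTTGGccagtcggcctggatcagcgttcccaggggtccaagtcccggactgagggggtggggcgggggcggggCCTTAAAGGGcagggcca

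A match was CC, then 6 bases of which at most 1 was not A or T, then GG, searched on both strands. In the window of Acta2 the matches began 84 and 34 bases before the start, in that of Myl9 161 and 99, and in that of Crip1 96 and 18. Of 27 genes of the contractile list (with Acta2) that had a window, 7 held a match (25.9%), the others being Myl6, Pdlim3, Ldb3 and Synm. Among all 27025 genes with a RefSeq window, 9.78% held one in any of their windows, and among the genes tested 10.9%. Among tested genes that passed the test described below, 10.9% of those higher and 12.2% of those lower in Acta2-rich cells held one. A match describes letters only, and the list was chosen with results of these data known, so no test was made.

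Most tested genes differed between Acta2-rich and Acta2-0 mural cells. Counts were summed over the cells of each kind in each library and tested with edgeR (quasi-likelihood F test), taking the library as a block, and p-values were adjusted over all 1411 genes tested. At an adjusted p under 0.05, 860 genes passed (60.9%), 420 higher (29.8%) and 440 lower (31.2%) in Acta2-rich cells. The median log2 difference over all tested genes was -0.02. Libraries of the 2 kinds of cell did not overlap at all for 137 higher genes (9.71%) and 129 lower genes (9.14%). The comparison without cells with fibroblast UMIs tested 854 genes, of which 534 passed (62.5%), 275 higher (32.2%) and 259 lower (30.3%). Of 850 genes tested in both, 579 passed with all Acta2-0 cells and 530 without cells with fibroblast UMIs. In both 485 passed with the same sign, 83.8% of those 579 and 91.5% of those 530. Genes called but not tested in both lie outside these percentages. The list counts below are to be read beside the shares of all genes tested, 29.8% higher and 31.2% lower. Without cells with fibroblast UMIs these shares were 32.2% and 30.3%. Below, levels are CPM scaled by TMM as lowest, median and highest of 13 libraries, and log2 differences are Acta2-rich minus Acta2-0 with their standard error. Pooled levels and sums over marker lists are CPM without TMM scaling.

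The contractile apparatus was higher almost as a whole. Of 31 listed contractile and cytoskeletal genes 26 could be tested, and 25 were higher and 1 was lower in Acta2-rich cells, with a median log2 difference of 3.52. Without cells with fibroblast UMIs, 24 of 24 were higher. The gene that was lower, Tpm4, was no longer among those tested there, so this count does not bear on it. Tpm2, Tagln, Tpm1, Crip1, Myh11, Lmod1, Myl9, Sncg and Mylk of this list stood among the 15 higher genes with the smallest adjusted p of the whole comparison.

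Myh11 stood at 9239.8, 10508 and 12885 CPM in Acta2-rich cells, against 17.8, 45.7 and 195 CPM in Acta2-0 cells (chromosome 16, 14194535 to 14291372 on GRCm38). Every library was higher in Acta2-rich cells, and the ranges lay far apart (log2 6.94 ± 0.19, edgeR adjusted p = 1.95e-29). Tagln had 4421, 6418 and 8491 CPM in Acta2-rich cells, against 0, 0 and 134 CPM in Acta2-0 cells, where most libraries held none (log2 8.72 ± 0.23, adjusted p = 6.0e-31, chromosome 9, 45929619 to 45936058). The tropomyosins, which lie along actin filaments and gate their contact with myosin, differed among themselves. Tpm2 stood at 5594, 6642 and 9190.5 CPM in Acta2-rich cells, against 111, 199.6 and 383 CPM in Acta2-0 cells (log2 5.01 ± 0.13, adjusted p = 3.61e-32), and Tpm1 at 7060.5, 7837 and 9643 CPM against 444, 598 and 804 CPM (log2 3.71 ± 0.11). Tpm4, a non-muscle tropomyosin, was the lower one, at 44.7, 118 and 213 CPM in Acta2-rich cells against 124, 323 and 437 CPM in Acta2-0 cells, with overlapping ranges (log2 -1.19 ± 0.20, adjusted p = 1.7e-06).

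Light chain, kinase and filament genes of the list were among those higher. Myl9 was at 6318, 9026 and 11323 CPM in Acta2-rich cells and was already well expressed in Acta2-0 cells, at 1031, 1531 and 2184 CPM (log2 2.49 ± 0.10, edgeR adjusted p = 8.84e-25). Mylk, the kinase that phosphorylates this chain, was at 3703, 4421 and 4961 CPM in Acta2-rich cells against 273, 511 and 872 CPM in Acta2-0 cells (log2 3.22 ± 0.13). Lmod1, a leiomodin that starts actin filaments, was at 1639.9, 1971 and 2738 CPM in Acta2-rich cells against 0, 14.1 and 137 CPM in Acta2-0 cells (log2 5.85 ± 0.21). Sncg, gamma-synuclein, had 720 UMIs in Acta2-rich cells and 2 in Acta2-0 cells, a ratio per UMI of 291 (95% counting interval 80.3 to 2409). Caldesmon (Cald1), which also binds actin and myosin, showed the smaller difference of a broadly expressed member, log2 1.11 ± 0.10, and 0.53 ± 0.09 without cells with fibroblast UMIs (adjusted p = 2.59e-06).

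**Figure D2:**
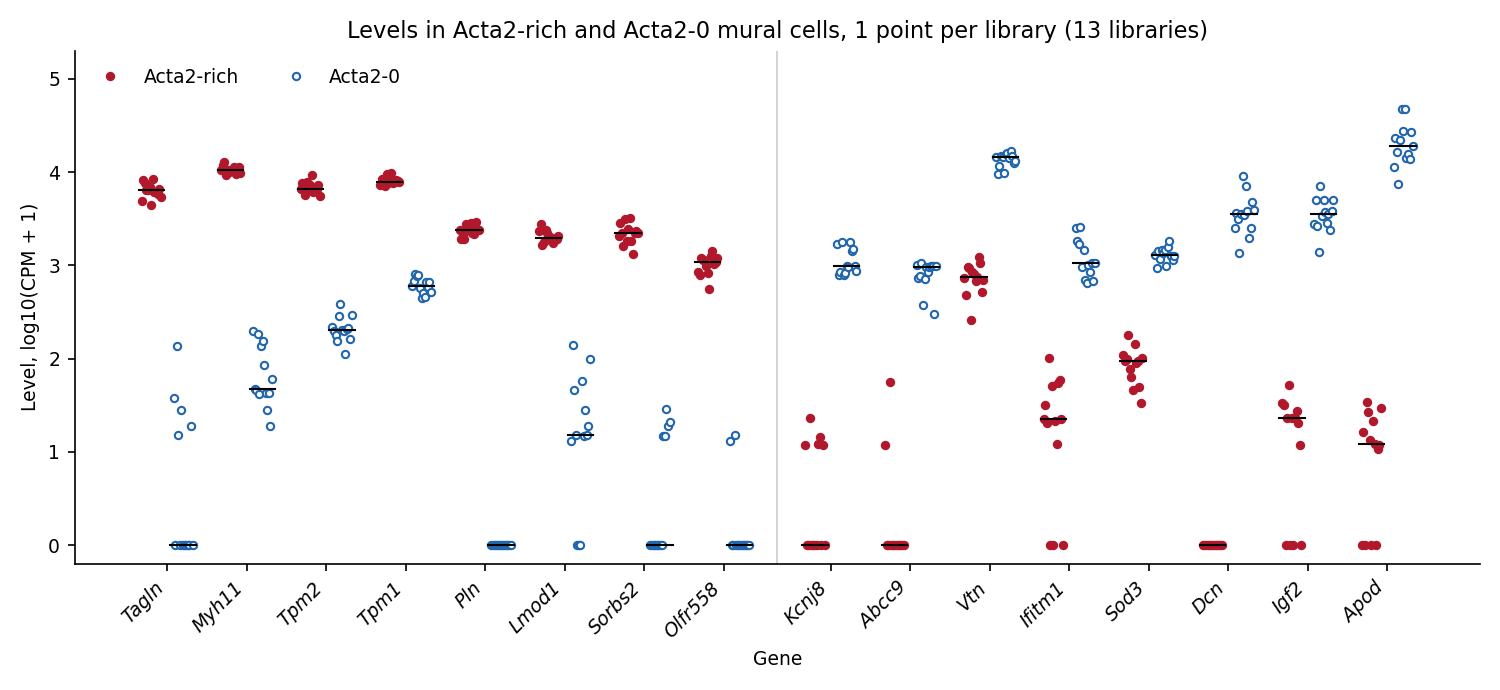
Levels of 8 genes higher and 8 genes lower in Acta2-rich cells as log10(CPM + 1) (vertical axis), 1 point per library, with Acta2-rich cells in filled red at the left and Acta2-0 cells in open blue at the right of each gene; black lines are medians over 13 libraries. The 2 sets of libraries do not overlap for any of the 16 genes.

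Other actins and the calponins, which bind actin and dampen its sliding, did not all follow. Beta-actin (Actb), found in every cell, was 10349.6 ± 1062 CPM in Acta2-rich cells and 4747 ± 823 CPM in Acta2-0 cells (SD, n = 13 libraries; log2 1.13 ± 0.10, edgeR adjusted p = 7.02e-14). Cnn1, the calponin used as a marker of mature smooth muscle, was detected in only 96 of 317 Acta2-rich cells (30.3%, and 18.1% after thinning) and in 1 of 440 Acta2-0 cells. It fell below the expression filter, and its 284 UMIs against 1 UMI give a ratio per UMI of 229.7 (95% counting interval 40.9 to 9104). Cnn2 was higher in Acta2-rich cells (log2 0.56 ± 0.15, adjusted p = 0.00168), whereas Cnn3 was lower (log2 -0.79 ± 0.20, adjusted p = 6.77e-04). Actg2, the actin of visceral smooth muscle, had 30 UMIs in 24 Acta2-rich cells and 0 in Acta2-0 cells, at least 8.09-fold higher when a count of 0 is replaced by a floor of 3 UMIs per group. Its coding sequence is nearly that of Acta2, so its reads could have been split between them in counting.

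The pathway that sets the activity of myosin was higher in part. In the list of myosin regulation and RhoA signalling, 10 of 14 tested genes were higher and 1 was lower in Acta2-rich cells (median log2 1.07), and without cells with fibroblast UMIs 9 of 11 were higher and 0 lower. The subunits of myosin phosphatase were among them. Ppp1r12a, its targeting subunit, stood at 1386, 1892 and 2109 CPM in Acta2-rich cells against 89.3, 232 and 421 CPM in Acta2-0 cells (edgeR adjusted p = 8.55e-23, and log2 2.78 ± 0.18 without cells with fibroblast UMIs), its relative Ppp1r12b differed by 4.13 ± 0.26 and the catalytic subunit Ppp1cb by 2.51 ± 0.17. Rock1, a kinase that inhibits that phosphatase, was at 748, 1169 and 1582 CPM in Acta2-rich cells against 39.4, 179 and 451 CPM in Acta2-0 cells (log2 2.52 ± 0.15). Ppp1r14a, the small inhibitor CPI-17, passed with all Acta2-0 cells (log2 1.12 ± 0.23, adjusted p = 4.32e-05) and not without cells with fibroblast UMIs (0.49 ± 0.24, adjusted p = 0.072). Rhob, a small GTPase that is quickly induced, was the lower one (log2 -1.63 ± 0.21, adjusted p = 5.0e-09).

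Calcium handling followed the same direction, with 10 of 13 tested genes higher and 1 lower in Acta2-rich cells, and 9 of 12 higher and 2 lower without cells with fibroblast UMIs (median log2 1.45). Phospholamban (Pln), which brakes the calcium pump of the sarcoplasmic reticulum, was found in one kind of cell and in none of the other. It stood at 1892, 2410.4 and 2899 CPM in Acta2-rich cells and at 0 UMIs in every library of Acta2-0 cells. Its 2348 UMIs against 0 made it, with the same floor, at least 633-fold higher, and 281 of 317 Acta2-rich cells (88.6%) held it. Of the Acta2-0 cells 0 of 440 did, which by counting error alone allows up to 0.682% of such shallow cells with a UMI and does not limit the share that express the gene. Pln lies inside Cep85l, a gene of the other strand, so reads of both could have been counted together.

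The pumps themselves divided. Atp2a2, the reticular pump that Pln inhibits, was at 630.3, 956 and 1106 CPM in Acta2-rich cells against 28.3, 197 and 246 CPM in Acta2-0 cells (log2 2.22 ± 0.15, edgeR adjusted p = 1.31e-17). Its relative Atp2a3 was lower, at 20.6, 144 and 215 CPM in Acta2-rich cells against 76.2, 323 and 599 CPM in Acta2-0 cells (log2 -1.28 ± 0.24, adjusted p = 1.88e-05). The plasma membrane pump Atp2b4 differed by 2.46 ± 0.21. Sorbs2, an adaptor of actin-rich adhesions placed in this list, had 1333, 2226 and 3187 CPM in Acta2-rich cells against 0, 0 and 28.1 CPM in Acta2-0 cells (log2 7.69 ± 0.23, adjusted p = 1.85e-30).

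Among ion channels and gap junctions, potassium channel subunits went in both directions with all Acta2-0 cells as reference. Of 8 tested genes of that list 4 were higher and 3 lower in Acta2-rich cells (median log2 0.28), and without cells with fibroblast UMIs 1 of 6 was higher and 3 were lower (median -0.21). Kcnj8 and Abcc9 form the ATP-sensitive potassium channel of vessels. Kcnj8 was at 0, 0 and 22.2 CPM in Acta2-rich cells against 778, 976 and 1796 CPM in Acta2-0 cells (log2 -7.26 ± 0.24, edgeR adjusted p = 1.02e-28, chromosome 6, 142564837 to 142571614). Abcc9 was at 0, 0 and 55.6 CPM in Acta2-rich cells against 303, 954 and 1069 CPM in Acta2-0 cells (log2 -6.69 ± 0.29). Kcnab1, a beta subunit of voltage-gated potassium channels, was at 213, 417 and 604 CPM in Acta2-rich cells against 0, 0 and 30.5 CPM in Acta2-0 cells (edgeR adjusted p = 2.32e-19). Kcnmb1, the smooth muscle subunit of the calcium-activated potassium channel, differed by 1.84 ± 0.26. With 1 gene of the list higher without cells with fibroblast UMIs, at most 1 of Kcnab1 and Kcnmb1 was higher in that comparison. The chloride channel Ano1 passed only with all Acta2-0 cells as reference (log2 0.78 ± 0.15, adjusted p = 1.69e-05, and 0.09 ± 0.17, adjusted p = 0.64, without cells with fibroblast UMIs), as did the connexin Gja4 (0.52 ± 0.16 and 0.10 ± 0.18).

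Receptors and enzymes that read vasoactive signals were split as a list, with large differences in single genes. Of 13 tested genes of that list 8 were higher and 4 lower in Acta2-rich cells (median log2 0.54), and of 11 tested without cells with fibroblast UMIs 5 were higher and 4 lower (median 0.04). Olfr558, an olfactory receptor gene, was at 555, 1097 and 1426 CPM in Acta2-rich cells against 0, 0 and 14.1 CPM in Acta2-0 cells (chromosome 7, 102702215 to 102712064), and 73.8% of Acta2-rich cells held it (57.4% after thinning). Its 1037 UMIs against 2 give a ratio per UMI of 419 (95% counting interval 116 to 3467). Of all Olfr558 UMIs in cells with at least 500 detected genes, 98.4% lay in the 317 Acta2-rich cells, a share close to the 98.3% of Tagln and the 97.1% of Myh11.

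Npy1r, a receptor of neuropeptide Y, was at 356, 605 and 864 CPM in Acta2-rich cells against 14.1, 66.5 and 454 CPM in Acta2-0 cells (log2 2.72 ± 0.22, edgeR adjusted p = 7.36e-15). Ramp1, the partner protein that makes a receptor respond to the calcitonin gene-related peptide, was at 200.1, 356 and 592 CPM in Acta2-rich cells against 0, 0 and 55.3 CPM in Acta2-0 cells (log2 4.41 ± 0.32). Phosphodiesterases that end the relaxing signals of cyclic nucleotides were higher, Pde3a by 3.88 ± 0.31 and Pde5a by 1.82 ± 0.16, and so was prostacyclin synthase (Ptgis, log2 3.51 ± 0.30). The nitric oxide receptor gave no single direction. Its subunit Gucy1a3 was higher with all Acta2-0 cells as reference (log2 0.51 ± 0.13, adjusted p = 0.0011) and not past the test without cells with fibroblast UMIs (-0.19 ± 0.15), and Gucy1b3 had -0.17 ± 0.12 (adjusted p = 0.208) and was lower without them (-0.91 ± 0.11, adjusted p = 1.84e-09). P2ry14, a receptor of UDP-sugars, was lower in Acta2-rich cells (log2 -1.66 ± 0.15), and so was Gper1, a membrane receptor for oestrogen (-1.19 ± 0.17, adjusted p = 4.73e-08). Both P2ry14 and Gper1 overlap a gene on the opposite strand.

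Adhesion and caveolae genes were mostly higher. In that list 12 of 15 tested genes were higher and 1 lower in Acta2-rich cells (median log2 1.21), and without cells with fibroblast UMIs 10 of 15 were higher. Caveolae are small pits of the membrane that hold signalling proteins. Ptrf, the coat protein cavin 1, was at 1712, 2099 and 2679 CPM in Acta2-rich cells against 41.2, 123 and 283 CPM in Acta2-0 cells (log2 4.08 ± 0.14, edgeR adjusted p = 1.15e-27), caveolin 1 (Cav1) differed by 5.24 ± 0.33 and cavin 3 (Prkcdbp) by 2.70 ± 0.19. Palladin (Palld), an actin cross-linker, was at 892, 1345 and 1878 CPM in Acta2-rich cells against 0, 0 and 53.4 CPM in Acta2-0 cells (log2 7.12 ± 0.27), and Filip1l was higher too (edgeR adjusted p = 8.84e-25, and log2 2.75 ± 0.14 without cells with fibroblast UMIs). The collagen-binding integrin Itga1 was the lower one (log2 -0.68 ± 0.16, adjusted p = 3.57e-04).

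The extracellular matrix went the other way. Of 19 tested matrix genes 15 were lower and 3 higher in Acta2-rich cells (median log2 -1.64), and without cells with fibroblast UMIs 11 of 15 were lower. Vtn was at 257, 746 and 1239 CPM in Acta2-rich cells against 9621, 14350.1 and 16828 CPM in Acta2-0 cells (log2 -4.19 ± 0.13, edgeR adjusted p = 3.63e-29). Nidogen 1 (Nid1), a linker of the basement membrane, was at 14.4, 87.3 and 138 CPM in Acta2-rich cells against 223, 549 and 989.7 CPM in Acta2-0 cells (log2 -2.56 ± 0.19). The laminin chains Lamc1 (-1.64 ± 0.16) and Lama4 (-2.05 ± 0.19) were lower too. The laminin chain Lamb2 was one of the 3 higher genes (log2 0.96 ± 0.16, adjusted p = 1.93e-06), beside asporin (Aspn, 1.21 ± 0.15) and Sparcl1 (1.09 ± 0.09), a matrix protein also made by astrocytes. Sparcl1 had 16503 CPM in Acta2-rich cells and 17998 CPM in astrocytes, without TMM scaling.

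The pericyte list fell with few exceptions. Of 33 tested genes 27 were lower and 3 higher in Acta2-rich cells (median log2 -1.60), and without cells with fibroblast UMIs 27 of 31 were lower and 1 was higher (median -2.13). The 10 genes used as pericyte markers were all lower in both comparisons, which share nearly all of the Acta2-rich cells. These markers were chosen with earlier results of these data known, so this count is a description. Ifitm1, an interferon-induced membrane protein, was at 0, 21.5 and 100.1 CPM in Acta2-rich cells against 652, 1063 and 2588 CPM in Acta2-0 cells (log2 -5.30 ± 0.21, edgeR adjusted p = 1.31e-25). The transporters Atp13a5 and Slc6a20a differed by -5.10 ± 0.26 and -4.71 ± 0.22. Rgs5, which dampens G protein signals, was at 1439, 4256 and 8262 CPM in Acta2-rich cells against 6392, 8493 and 12323 CPM in Acta2-0 cells, lower in every library with overlapping ranges (log2 -1.14 ± 0.14). Mcam, a cell adhesion molecule listed here, was higher in both comparisons (1.88 ± 0.16 and 1.23 ± 0.17).

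Of the 15 lower genes with the smallest adjusted p, 8 (Apod, Itih5, Igf2, Dcn, Cxcl12, Edn3, Spp1 and Igfbp2) were no longer above the expression filter once cells with fibroblast UMIs were left out. For Dcn this was fixed in advance, since its UMIs were among those that chose the cells left out. Decorin had 2500 UMIs in Acta2-0 cells and 0 in Acta2-rich cells, at least 1030-fold lower with the same floor, and 0 of 317 Acta2-rich cells with a UMI allows up to 0.946% with one by counting error alone. Lower in both comparisons were Vtn, Kcnj8, Abcc9, Ifitm1, the anion transporter Slc22a8 and the extracellular superoxide dismutase Sod3. Sod3 was at 32.6, 92.3 and 178 CPM in Acta2-rich cells against 930.1, 1293 and 1835 CPM in Acta2-0 cells, with ranges well apart (log2 -3.86 ± 0.16, edgeR adjusted p = 1.65e-24). Ptn, the growth factor pleiotrophin, was detected in 18.9% of Acta2-rich cells and in 99.8% of Acta2-0 cells (log2 -6.18 ± 0.40, adjusted p = 5.81e-09).

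**Figure D3:**
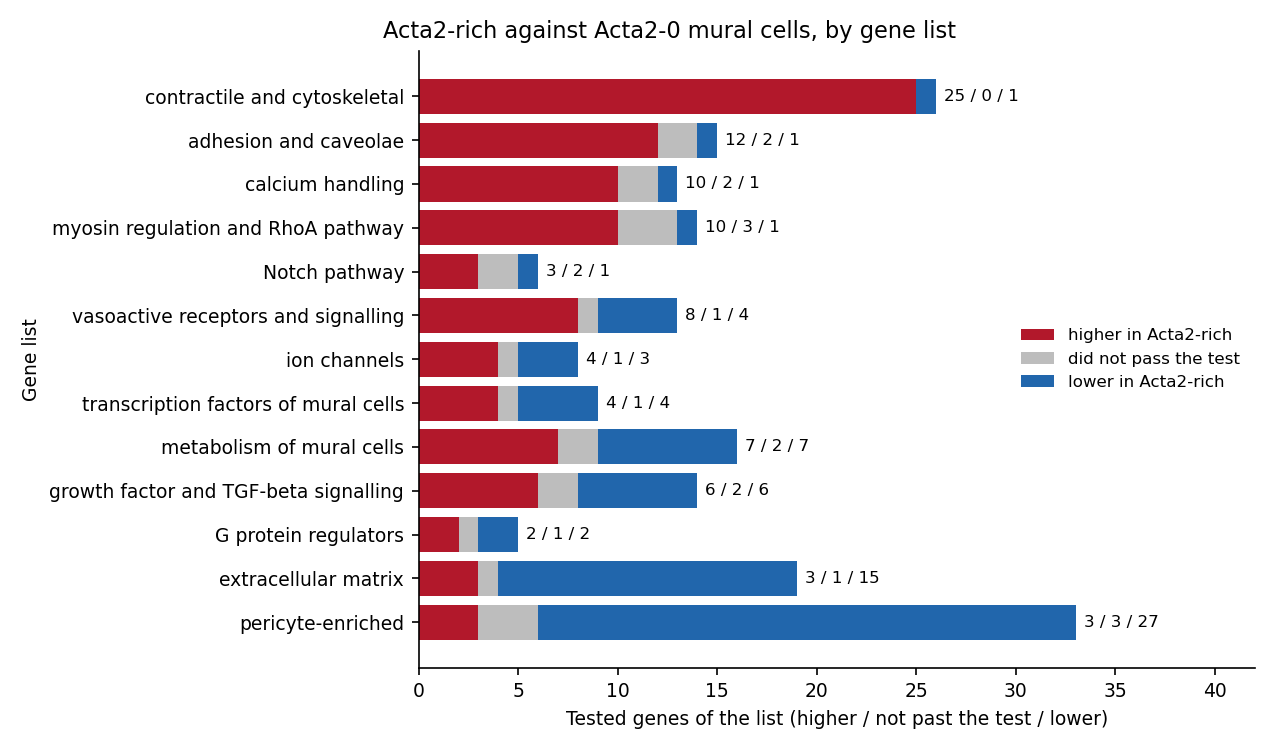
Number of tested genes of each list (horizontal axis) that were higher (red), not past the test (grey) or lower (blue) in Acta2-rich than in Acta2-0 mural cells; the counts stand beside each bar in that order. The contractile list is nearly all red with 25 of 26 genes, the pericyte-enriched list mostly blue with 27 of 33.

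Growth factors and regulators of cell identity were split. In the list of growth factor and TGF-beta signalling 6 of 14 tested genes were higher and 6 lower in Acta2-rich cells, and without cells with fibroblast UMIs 3 of 8 were higher and 4 lower. Pdgfrb, the receptor by which mural cells are recruited to vessels, was 283 ± 99.3 CPM in Acta2-rich cells and 1061 ± 235 CPM in Acta2-0 cells (SD, n = 13 libraries; log2 -1.90 ± 0.15, edgeR adjusted p = 1.66e-15). The growth factor gene Pdgfa was higher, at 289.5, 334 and 467 CPM in Acta2-rich cells against 28.1, 54.8 and 146 CPM in Acta2-0 cells (log2 2.33 ± 0.23). The fibroblast growth factor Fgf1 differed by 4.44 ± 0.29 and angiopoietin 1 (Angpt1) by 3.52 ± 0.29. Igfbp7, a secreted binding protein, passed the test in opposite directions, at 0.38 ± 0.10 with all Acta2-0 cells as reference and at -0.28 ± 0.09 (adjusted p = 0.00692) without cells with fibroblast UMIs.

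Of 9 tested transcription factors of mural cells 4 were higher and 4 lower, and of 8 tested without cells with fibroblast UMIs 1 was higher and 4 were lower. Mef2c, a factor of muscle genes, was higher in both (617, 839 and 1080.1 CPM in Acta2-rich cells against 88.7, 233 and 469.8 CPM in Acta2-0 cells, log2 1.62 ± 0.14, edgeR adjusted p = 1.19e-13). Zic1 was lower (138, 201 and 291 CPM in Acta2-rich cells against 629.8, 866 and 1439 CPM in Acta2-0 cells, log2 -2.04 ± 0.14), as were Foxc1 (-1.23 ± 0.14) and Tbx18 (-1.43 ± 0.17). In the Notch list, the pathway that arterial smooth muscle uses to mature, 3 of 6 tested genes were higher and 1 lower: the target Hey2 (0.97 ± 0.24), the ligand Jag1 (0.83 ± 0.23) and Nrip2 (5.01 ± 0.31) were higher and Hes1 was lower (-0.79 ± 0.18, adjusted p = 2.57e-04). Of the 4 tested without cells with fibroblast UMIs, 1 was higher and 2 were lower. Of 25 immediate early genes, which respond to stimulation within minutes, 2 passed the expression filter, Ier3 (log2 -1.32 ± 0.24) and Jund (-0.54 ± 0.21), both lower in Acta2-rich cells, and 0 could be tested without cells with fibroblast UMIs. With no filter 7 of the 25 were higher and 1 was lower, where 7.89% of 14897 genes were higher and 7.55% lower. That count leaned to higher, opposite to the 2 genes above the filter, and the list was not tested as a set. In the list of G protein regulators 2 of 5 tested genes were higher and 2 lower, and without cells with fibroblast UMIs 1 and 2 of 5. In that of calponins and actins 2 of 3 were higher and 1 lower in both comparisons.

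The metabolism list was evenly split, with 7 of 16 tested genes higher and 7 lower in Acta2-rich cells, and 7 of 14 higher and 6 lower without cells with fibroblast UMIs. Aoc3, the amine oxidase of smooth muscle surfaces, had 349 UMIs in 186 Acta2-rich cells and 0 in Acta2-0 cells, at least 94.1-fold higher with the same floor. Subunit 4 of cytochrome oxidase differed by isoform. Cox4i2, the hypoxia-related form, was at 44.7, 147 and 244 CPM in Acta2-rich cells against 183, 379 and 746 CPM in Acta2-0 cells (log2 -1.43 ± 0.22, edgeR adjusted p = 3.02e-07), while the common form Cox4i1 was at 924, 1105 and 1582 CPM against 598, 746 and 2143 CPM (log2 0.48 ± 0.12, adjusted p = 5.68e-04). Car4, a carbonic anhydrase, was lower in Acta2-rich cells (-2.89 ± 0.24).

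Acta2-rich cells were not uniform among themselves. They were divided into terciles of 106, 106 and 105 cells by their Acta2 UMIs per 10000 UMIs, which ran between 22.2 and 116 in the low, 116 and 179 in the middle and 179 and 327 in the high tercile; every tercile held cells of all 13 libraries. These are pooled levels given as a description, since Acta2 set the order. Rgs5 was at 10664 CPM in the low, 4043 CPM in the middle and 1266 CPM in the high tercile, and Vtn at 1770, 581 and 297 CPM. Ptn, Ano1, Cox4i2 and Higd1b ran the same way. Olfr558, although nearly limited to Acta2-rich cells, also declined, at 1675, 1140.5 and 693 CPM. In the other direction Tagln stood at 4301, 6713 and 8826 CPM, Sorbs2 at 1228, 2222 and 3381 CPM, Ptgis at 106, 294 and 573 CPM and Cnn1 at 87.2, 266 and 536 CPM. Median UMIs per cell were 2113.5, 2933.5 and 2742, and their part in these differences was not tested.

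**Figure D4:**
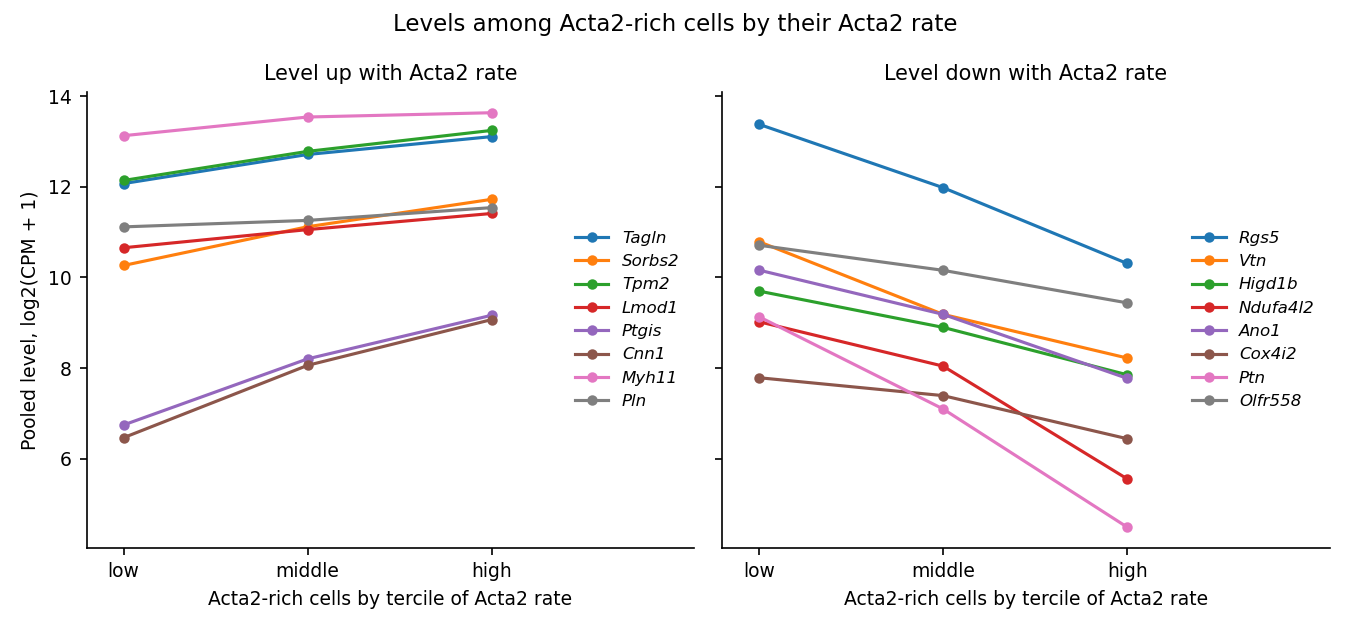
Pooled levels as log2(CPM + 1) (vertical axis) of 16 genes in Acta2-rich cells of the low, middle and high tercile of Acta2 rate (horizontal axis, 106, 106 and 105 cells). Genes in the left panel stood higher in the high than in the low tercile; in the right panel Rgs5 stood at 10664 CPM in the low and 1266 CPM in the high tercile.

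Variation was also measured without regard to Acta2. In 277 Acta2-rich cells thinned to 1000 UMIs, the ratio of variance to mean was highest for Rgs5 (13.8), then for Malat1 (6.62), Vtn (5.96) and Mgp (4.64), among 251 genes with a mean of at least 0.5 UMIs per cell. Mgp encodes matrix Gla protein, an inhibitor of vessel calcification. The 96 cells in which Cnn1 was detected had pooled levels of 563 CPM of Ptgis, 1000 CPM of Crispld2 and 233 CPM of Vtn, against 174, 439.7 and 1215 CPM in the 221 cells without Cnn1. Their median depths differed, at 3566 and 2025 UMIs per cell, and its part in the split was not tested.

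Across all 775 mural cells, the genes whose levels ran most like Acta2 were Tagln (Spearman correlation 0.93), Myh11 (0.91), Tpm2 (0.90), Pln (0.88), Sorbs2, Lmod1 and Tpm1 (0.86 each), Crip1 (0.85), Palld (0.82) and Myl9 (0.80), of 3895 genes detected in at least 10% of the cells. Cells of a library share that library, and depth differs between cells, so these are descriptions. Within the Acta2-rich cells alone the correlations were weaker, at 0.70 for Tpm2, 0.62 for Tpm1, 0.57 for Tagln and 0.36 for Myh11.

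Per UMI, markers of other cell types were mostly lower in Acta2-rich cells, with single cells that stood apart. Summed over 14 endothelial markers, 13 of them detected and Cdh5 at 0, they held 21.3 to 626 CPM per library, against 265 to 1109 CPM in Acta2-0 cells. The highest value came from female replicate 3, where 1 cell held 50 of 53 endothelial UMIs. All 9 measured markers of oligodendrocyte precursors were detected, at 11.8 to 2799.6 CPM per library in Acta2-rich cells against 42.3 to 849.5 CPM in Acta2-0 cells, and 1 cell of female replicate 1 held all 120 such UMIs of its library. Neuron markers, all 12 detected, summed to 256.5 CPM over all Acta2-rich cells and to 1342 CPM over all Acta2-0 cells, and the 10 microglia markers to 30.4 to 192 CPM against 95.7 to 1725 CPM. Astrocyte markers reached 511 to 2147 CPM in Acta2-rich cells against 1604 to 3119 CPM in Acta2-0 cells, all 10 detected, and oligodendrocyte markers 192 to 914 CPM against 339.8 to 874 CPM. Of 11 measured fibroblast markers 7 were detected in Acta2-rich cells, with Dcn, Lum, Slc6a13 and Aldh1a2 at 0, and the list summed to 467 to 2053 CPM per library in Acta2-rich cells against 12544 to 59933 CPM in Acta2-0 cells. Perivascular macrophage markers ran the other way, at 62.5 CPM over all Acta2-rich cells, of which 5 held 3 or more such UMIs, against 13.3 CPM over all Acta2-0 cells, of which 0 did. Ependymal and choroid plexus markers summed to 163 to 449 CPM per library in Acta2-rich cells against 537 to 957 CPM in Acta2-0 cells. Blood markers reached 1538 CPM in Acta2-rich cells of female replicate 7, where 1 cell held 100 of 101 haemoglobin UMIs, against at most 1844 CPM in any library of Acta2-0 cells. Counted by cells with 3 or more such UMIs, oligodendrocyte markers stood at 14.2% of Acta2-rich against 8.64% of Acta2-0 cells. Astrocyte markers stood at 38.5% against 38.4% and blood markers at 0.946% against 0.227%. For endothelial, precursor, microglia, neuron, fibroblast and ependymal markers this share was lower in Acta2-rich cells. Depth differed between the 2 kinds of cell, and its part was not tested. The part of these markers in the comparison was not tested beyond leaving out cells with 3 or more endothelial UMIs, called doublets or cells with fibroblast UMIs.

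Between the sexes, the comparison the study was built on, 1 gene differed in Acta2-rich cells when all libraries were used. Of 1586 genes tested with edgeR on 6 male and 7 female libraries, 1 passed, Xist (0.0631%), and 94 had an unadjusted p under 0.05. No gene above the expression filter was higher in males (0.0%). Without that filter 5 of 13578 genes were higher in males, and the Y-linked genes Ddx3y and Eif2s3y were among the 8 that passed. Xist, the RNA that silences an X chromosome in female cells, had 0 UMIs in male Acta2-rich cells and 285 in female ones (387, 599.5 and 851 CPM as lowest, median and highest of the 7 female libraries; adjusted p = 8.35e-18), which matches the labels. The next gene, Timp3, a protease inhibitor of the matrix, averaged 2725 ± 589.7 CPM in male libraries and 1929.8 ± 253 CPM in female libraries (log2 0.49 ± 0.12, adjusted p = 0.143). In the 9-week libraries alone 4 genes passed, Timp3 among them (0.62, adjusted p = 0.0247). The count also moved with single libraries, to 5 without male replicate 5, 3 without male replicate 3 or female replicate 5 and 2 without male replicate 6 or female replicate 7. Of the 27 contractile genes tested 0 passed, and their log2 differences, male minus female, lay between -0.33 and 0.41 with a median of 0.04. Myh11 averaged 11548 ± 1268 CPM in male libraries and 11208 ± 712 CPM in female libraries (log2 0.04 ± 0.09). Acta2 itself, without TMM scaling and with its own UMIs in the total, averaged 15032 ± 2206 CPM in male libraries and 15785 ± 1804 CPM in female libraries.

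The difference between Acta2-rich and Acta2-0 cells was also tested between the sexes. Of 2237 genes 0 passed with edgeR (0.0%), 99 had an unadjusted p under 0.05, and DESeq2 called 0 as well. Nnat, an imprinted gene known from developing brain, had the smallest adjusted p, 0.166. A p that misses the threshold does not show that the sexes were alike. The precision of these values is limited by the 12 to 36 Acta2-rich cells per library.

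The share of Acta2-rich cells among mural cells did not differ between the sexes beyond the spread of libraries. The share was 45.6% ± 12.2 in males (n = 6 libraries) and 38.2% ± 5.98 in females (n = 7), a difference of 7.37 percentage points (p = 0.184, exact two-sided permutation test over 1716 assignments). Male replicate 5 was the highest at 65.9% (29 of 44 cells, exact 95% binomial interval 50.1 to 79.5), and female replicate 1 the lowest at 30.0% (12 of 40 cells, 16.6 to 46.5). Such intervals cover counting error only. In the 9-week libraries alone the shares were 39.8% ± 7.98 (4 male libraries) and 39.0% ± 6.19 (6 female libraries), a difference of 0.862 points (p = 0.852, exact permutation test). The 8-week libraries, 2 male and 1 female, were too few for a value of their own, and how many cells of each kind survived dissociation cannot be told apart from how many the tissue held.

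**Figure D5:**
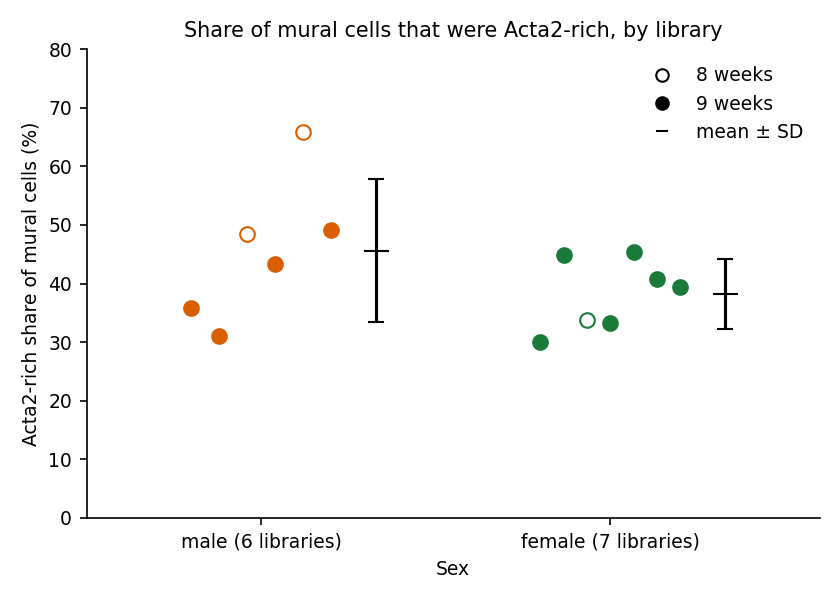
Share of mural cells that were Acta2-rich (vertical axis, percent), 1 point per library, males at the left and females at the right; open points are 8-week and filled points 9-week libraries, and bars are mean ± SD. The male libraries average 45.6% with the 8-week male replicate 5 at 65.9%, the female libraries 38.2%.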

How the data were processed

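The authors deposited 1 table of UMI counts, whole numbers with differing totals per cell and no normalization, for 16961 genes and 43388 cells, whose names give the library and the authors' cell class. Per the submitters' processing notes, bcl2fastq 2.17.1.14 and STAR 2.5.0a were used with the mm10 build. The steps of UMI collapsing, cell selection and class naming and the strand counted are not given in the sources used here. Here, mural cells with at least 500 detected genes were divided by Acta2 UMIs, Acta2 was removed, and counts were summed per library and kind of cell, each with at least 5 cells, so that the library was the replicate.

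The sums were tested with edgeR 4.0.16 in R 4.3.3 (TMM scaling, filterByExpr, robust quasi-likelihood F test, two-sided, Benjamini-Hochberg adjustment over all genes tested, threshold 0.05), with the library as a block within libraries and without covariates between the sexes. The code was tested on simulated data. A standard error is the size of the log2 difference divided by the square root of F. DESeq2 1.42.0, other scaling, filters, thresholds and left-out libraries were alternatives. For a count of 0 the floor was 3 UMIs per group. Floors and 95% intervals of count ratios (exact binomial) cover counting error only. Scrublet marked 281 of 24808 cells (1.13%) as doublets, which stayed in. Over all deposited cells 48 barcodes were found in several libraries. Among the mural cells with at least 500 detected genes alone 0 were, and sharing between these and other cells was not counted.

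Named genes were up to 15 per direction with the smallest adjusted p and at least 50 CPM in the higher group, list members as examples, and the 10 genes most like Acta2. Igfbp7, Gucy1b3, Timp3, Nnat, Crispld2, Malat1 and genes that missed the filter were named after their values were seen, and 1 gene that the rule names is not reported here. The members, gene lists and markers were chosen with earlier results of these data known. Promoter windows came from RefSeq on GRCm38.p6 (27 of 32 contractile genes, Acta2 included, matched by symbol) and gene positions from GENCODE M21, on GRCm38 (mm10). Sorbs2, Filip1l, Pln, Mylk, Cald1 and Aspn are among the genes that overlap another gene on the opposite strand, so their reads could have been shared. Nrip2, Igf2, Itga1, Crispld2 and Cox4i1 overlap another gene model on their own strand, which counting by strand could not separate.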

Additional observations from a re-analysis of the deposited data

Results flagged for a closer look

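Acta2 transcripts also lay outside the cells compared. Among 339 mural cells with fewer than 500 detected genes, which were not used, 40 (11.8%) held 3 or more Acta2 UMIs at a median depth of 437 UMIs per cell. Among 42274 cells of the other classes, deposited cells of any depth included, 3 held 3 or more Acta2 UMIs, 2 classed as endothelial and 1 as oligodendrocyte, with a median of 8912 UMIs per cell in these 3. No cause was tested for either.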

How the results depend on the processing

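The count of 860 genes that differed between Acta2-rich and Acta2-0 cells was 2299 without a filter on low counts (14897 genes tested), 217 with cells thinned to 1000 UMIs (269 tested) and 534 without cells with fibroblast UMIs (854 tested, chosen after seeing the data). The filter setting kept the cells and changed the genes tested, and with them the scaling and the spread that were estimated. The other 2 changed the cells as well. Leaving out each library gave 786 to 880. With DESeq2 size factors, which moved the median of all genes by under 0.1, 445 genes were higher and 406 lower. Without the library as a replicate block 870 passed. For 125 gene results, 3500 values could be computed under the alternatives, not each gene in each, and 3478 of these had the direction and side of the threshold reported, 13 no longer passed and 6 newly passed. The 3 that changed sign were Gucy1a3 (-0.19) and Igfbp7 (-0.28) without cells with fibroblast UMIs and Gucy1b3 (0.12) without a filter.

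In the sex comparison the count was 8 without a filter (Xist, Tsix, Ddx3y, Eif2s3y, Errfi1, Fbxo3, Per3 and Tef), 0 with thinned cells, 4 in 9-week libraries (Xist, Timp3, Fbxo3 and Car14) and 2 with the replicate block (Xist and Errfi1). Leaving out each library gave 1 to 5, with 5 without male replicate 5, 3 without male replicate 3 or female replicate 5 and 2 without male replicate 6 or female replicate 7. For the difference of differences it was 1 without cells with fibroblast UMIs (Dbp) and 0 to 1 on leaving out each library, the 1 being Nnat without male replicate 1; without the replicate block it was 0. The share difference ran between 3.31 points without male replicate 5 and 10.3 without male replicate 2 on leaving out each library, and was 7.56 points (p = 0.156, exact permutation) within the replicate block; no alternative passed. No pairing by replicate number was seen. Same-numbered libraries correlated at -0.11 to 0.07 after group means were removed, and 1 of 6 males correlated best with its own number. These values rest on sums over few cells per library, so they cannot exclude a pairing. The cause of the other shifts was not tested. The sex comparisons rest on 12 to 36 Acta2-rich cells per library.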
